A study of Mus musculus with 12 samples.

Results

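The 9 genes described here encode enzymes of the methionine cycle and of transsulfuration in mouse liver: Mat1a, Mat2a, Gnmt, Pemt, Ahcy, Bhmt, Bhmt2, Cbs and Cth. They were chosen by gene symbol from the 24532 genes of the deposited table, 1 row per symbol, and all 9 passed the filter on low counts that left 13379 genes for testing. The libraries were made from whole-liver RNA of mice of a mixed C57BL/6x129S6/SvEv background at 20 weeks of age. Het animals (mice 1, 2, 3 and 4), labelled as the control, were compared with Atp7b-/- animals (KO, mice 2, 4, 5 and 6) and with Atp7b-/- animals fed an LXR agonist, a compound that activates the liver X receptors (KO-Drug, mice 1, 2, 3 and 4). Atp7b encodes the copper-transporting ATPase of the hepatocyte, the gene mutated in Wilson disease. The labels give neither the sex nor the litter, the part of Atp7b that the allele lacks, nor which agonist was fed, at what dose and for how long.

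Methionine is activated to S-adenosylmethionine (SAM) by methionine adenosyltransferases, of which Mat1a encodes the form of mature hepatocytes and Mat2a the form of most other tissues and of dividing liver cells. Methyltransferases such as glycine N-methyltransferase (Gnmt) and phosphatidylethanolamine N-methyltransferase (Pemt) use SAM and release S-adenosylhomocysteine (SAH), an inhibitor of many methyltransferases, which S-adenosylhomocysteine hydrolase (Ahcy) splits into adenosine and homocysteine. Homocysteine is either methylated back to methionine, with betaine as donor through Bhmt or with S-methylmethionine through Bhmt2, or is turned into cysteine by transsulfuration through cystathionine beta-synthase (Cbs) and cystathionine gamma-lyase (Cth). Liver carries most of this traffic in the body, and Ahcy is known as an enzyme whose activity copper inhibits.

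Library totals ranged from 19724743 to 25054822 counts in Het, from 16535938 to 28329751 in KO and from 18841560 to 20174103 in KO-Drug. The 9 genes together held 0.851% to 1.23% of the counts of a Het library, 0.851% to 1.07% of a KO library and 0.9749% to 1.09% of a KO-Drug library. Atp7b was at 9.90, 13.1, 12.2 and 16.2 CPM in Het, at 1.76, 1.68, 2.71 and 2.20 in KO and at 1.31, 3.49, 1.27 and 2.81 in KO-Drug (CPM, counts per 1e6 counts, after TMM scaling of the libraries), so no KO or KO-Drug library reached the lowest Het library. KO 5 and KO 6 stood apart from the rest. Xist was at 81.8 CPM in KO 5, 17.8 in KO 6 and at most 0.425 in the other 10 libraries. Ddx3y was at 0.379 CPM in KO 5, 64.4 in KO 6 and 79.5 to 111 in the other 10. Only the KO group held libraries with Xist at this level, and a part of sex in the comparisons with KO was not tested. Results are therefore also given without these 2 libraries. The scaling moved all results: with library totals in place of TMM, the median log2 change of all tested genes moved from 0.02 to 0.54 in KO vs Het, from -0.02 to -0.36 in KO-Drug vs KO, and from near 0 to 0.18 in KO-Drug vs Het. A change on the TMM scale is thus a change relative to the bulk of expressed genes.

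Promoter sequence is shown for genes that changed together and for genes that did not, because LXR is a nuclear receptor that binds, with its partner RXR, to pairs of AGGTCA half-sites. RefSeq start sites (build GRCm38.p6) gave a window of 200 bases, from 250 to 51 bases before the start, for 7 of the 9 genes, and for Pemt at 2 starts. The 4 windows below belong to Ahcy, Gnmt, Bhmt and Mat2a. Ahcy and Gnmt had the largest changes in both comparisons with KO. Bhmt was not called in either, and Mat2a was called in KO-Drug vs KO but not in KO vs Het. Pemt, called in both comparisons like Ahcy and Gnmt, is not printed, and its 2 windows hold no half-site. Sequences run 5′ to 3′ on the strand of the gene, and capitals mark AGGTCA or its reverse complement TGACCT.
Ahcy, chr2:155074548-155074747, minus strand: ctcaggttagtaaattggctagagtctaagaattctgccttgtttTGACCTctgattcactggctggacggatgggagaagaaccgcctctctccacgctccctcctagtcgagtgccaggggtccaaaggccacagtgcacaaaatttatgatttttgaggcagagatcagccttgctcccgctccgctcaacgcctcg
Gnmt, chr17:46729216-46729415, minus strand: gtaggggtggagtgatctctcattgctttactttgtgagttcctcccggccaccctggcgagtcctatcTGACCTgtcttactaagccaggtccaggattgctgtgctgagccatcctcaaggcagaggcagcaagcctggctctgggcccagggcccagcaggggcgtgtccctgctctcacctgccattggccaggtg
Bhmt, chr13:93637809-93638008, minus strand: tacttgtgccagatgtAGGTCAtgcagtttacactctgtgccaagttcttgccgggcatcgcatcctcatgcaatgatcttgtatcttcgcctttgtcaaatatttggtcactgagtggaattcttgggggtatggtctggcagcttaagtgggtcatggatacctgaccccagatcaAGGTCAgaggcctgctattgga
Mat2a, chr6:72439607-72439806, minus strand: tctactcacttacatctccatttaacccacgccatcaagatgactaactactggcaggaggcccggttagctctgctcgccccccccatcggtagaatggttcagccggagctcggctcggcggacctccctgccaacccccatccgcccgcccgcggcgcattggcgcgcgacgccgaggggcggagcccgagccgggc

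The half-site was read on both strands, and 11.4% of 32841 RefSeq windows of the same length hold it. Ahcy holds it at -205 and Gnmt at -181, both in the reverse orientation, and Bhmt holds it at -234 and again at -72 in the forward orientation, counted from the start site. The direct repeat of the half-site with 4 bases between was found in 4 of the 32841 windows and in none of the 9 genes' windows. Of the other motifs searched on both strands, the E-box CACGTG (4.34% of windows) was found in Cbs at -229, while the metal response element cores TGCGCNC (9.23%) and TGCACNC (8.60%) and the antioxidant response element core TGACNNNGC (7.66%) were in none of them. None of these motifs was found in the windows of Mat2a, Bhmt2 or Pemt. These matches are letters in a window and say nothing of binding.

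On the same build, Ahcy spans chr2:155059310-155074497, Mat1a chr14:41105012-41124428 and Mat2a chr6:72432796-72439556. Gnmt (chr17:46725664-46729211) and Cbs (chr17:31612623-31637233) are both on chromosome 17, and Bhmt (chr13:93616891-93637758) and Bhmt2 (chr13:93656097-93674302) are neighbours on chromosome 13. Cth spans chr3:157894248-157925081 and Pemt chr11:59970614-60046561. For Gnmt, Cbs and Pemt the start sites used for the promoter windows lie inside these spans and not at their ends. The deposited counts are 1 value per gene, not per exon. Non-coding genes overlap the spans of Ahcy (Gm39966) and Pemt (Gm38498).

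In KO liver, transcripts of the methyltransferases Gnmt and Pemt and of the SAH hydrolase Ahcy fell, and neither gene of SAM synthesis was called. Bhmt2 was called lower too, a call that held in 8 of 17 alternatives. Of the 9 genes 4 were called lower in KO than in Het (Gnmt, Ahcy, Pemt and Bhmt2) and 0 higher, where 17.7% of all tested genes were called lower, 23% higher and 40.7% in either direction (edgeR quasi-likelihood test, adjusted p under 0.05). The 9 genes had a median log2 change of -0.48, beside 0.02 over all genes tested. With total-count scaling 3 fell (Gnmt, Ahcy and Pemt) and 2 rose (Mat1a and Mat2a), with a median of 0.044 beside 0.54 for all genes. The same 4 genes were called lower without KO 5 and KO 6. At an unadjusted p under 0.05, 0 of the 9 were higher and 4 lower, and DESeq2 also called 0 higher. Groups did not overlap for 3 of the 9 genes (Gnmt, Ahcy and Pemt), where 39.3% of all tested genes had no overlap.

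Under the agonist, 4 of the 9 genes were called higher in KO-Drug than in KO (Ahcy, Gnmt, Pemt and Mat2a) and 0 lower, where 8.8% of all tested genes were called higher, 11% lower and 19.8% in either direction. Their median log2 change was 0.52, beside -0.02 over all genes, and groups did not overlap for 3 of the 9, beside 23.9% of all tested genes. With total-count scaling 2 remained higher, Ahcy and Gnmt, and the median was 0.18 beside -0.36 for all genes. Leaving out KO 5 and KO 6 also gave 4 called higher, Ahcy, Gnmt and Pemt with Cth in place of Mat2a. At an unadjusted p under 0.05, 6 of the 9 were higher and 0 lower, and DESeq2 also called 0 lower. The comparisons of KO-Drug with KO and of KO with Het share the 4 KO libraries, so a KO library that is low or high moves both.

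Compared with Het, KO-Drug liver had 1 of the 9 genes called higher (Mat2a) and 2 called lower (Gnmt and Pemt), where 13% of all tested genes were called higher, 8.45% lower and 21.4% in either direction. Groups did not overlap for the same 3 genes, beside 24.6% of all tested genes. The median of the 9 was -0.33, and that of all genes was near 0.

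**Figure D1:**
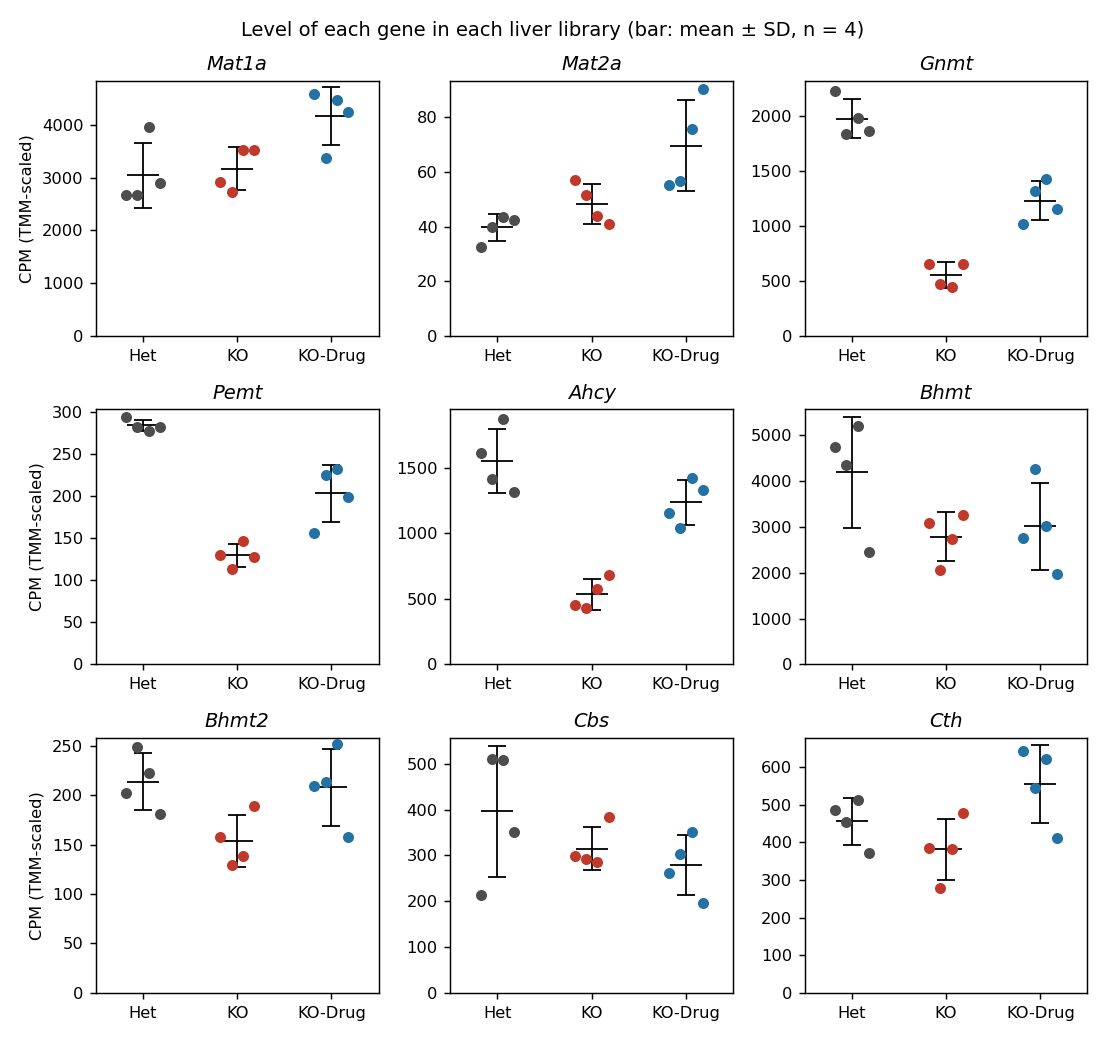
Level of each of the 9 genes in each of the 12 liver libraries, in CPM on TMM-scaled library sizes (vertical axis, from 0) by group (horizontal axis). Points are libraries, the long bar is the mean and the whiskers are the SD of 4 libraries. Gnmt, Ahcy and Pemt have no KO library within the range of Het, whereas Mat1a, Bhmt, Cbs and Cth overlap between Het and KO.

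Gnmt, the most abundant methyltransferase of hepatocytes, which methylates glycine to sarcosine and buffers the SAM to SAH ratio, showed the largest change of the 9 genes between KO and Het. It was at 2231, 1836, 1983 and 1865 CPM in Het, at 659, 471, 442 and 656 CPM in KO, and at 1021, 1319, 1428 and 1158 CPM in KO-Drug. No library of any group entered the range of another, and the KO-Drug libraries lay between the KO and the Het libraries. In KO, Gnmt was 3.55-fold below its Het level (log2 -1.83, SE 0.18, edgeR adjusted p = 1.0e-05). It was 2.21-fold higher in KO-Drug than in KO (log2 1.14, SE 0.18, edgeR adjusted p = 0.00165) and remained 1.61-fold lower than in Het (log2 -0.68, SE 0.18, edgeR adjusted p = 0.0137). Without KO 5 and KO 6 the first 2 differences were -1.87 and 1.17 on the log2 scale. The difference from Het was not called on the deposited FPKM (-0.51, limma adjusted p = 0.0708).

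Pemt makes phosphatidylcholine from phosphatidylethanolamine with 3 methyl groups from SAM, and it had the tightest Het group of the 9 genes. It was at 294, 282, 278 and 282 CPM in Het, at 130, 114, 147 and 128 CPM in KO and at 156, 225, 232 and 198.8 CPM in KO-Drug. All KO libraries were below all Het libraries, and KO-Drug 1, the lowest of its group, was still above every KO library. In KO, Pemt was 2.19-fold below its Het level (log2 -1.13, SE 0.14, edgeR adjusted p = 5.5e-05) and 1.57-fold higher in KO-Drug than in KO (log2 0.65, SE 0.14, edgeR adjusted p = 0.00639). Without KO 5 and KO 6 these were -1.28 and 0.78 on the log2 scale, both still called. The rise under the agonist was not called with total-count scaling (0.30, edgeR adjusted p = 0.122) or on FPKM (0.28, limma adjusted p = 0.138). KO-Drug was 1.398-fold lower than Het (log2 -0.48, edgeR adjusted p = 0.0222), a call lost without KO-Drug 1 (-0.38, adjusted p = 0.0620), without KO-Drug 4 (-0.47, adjusted p = 0.0569) and with total-count scaling (-0.31, adjusted p = 0.142).

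Ahcy, the only mammalian enzyme known to hydrolyse SAH, was at 1612, 1412, 1872 and 1319 CPM in Het, at 450.0, 433, 575 and 679 CPM in KO and at 1155, 1040, 1426 and 1329 CPM in KO-Drug. The KO libraries lay apart below both other groups, and KO-Drug overlapped Het. In KO, Ahcy was 2.91-fold below its Het level (log2 -1.54, SE 0.19, edgeR adjusted p = 5.6e-05) and 2.32-fold higher in KO-Drug than in KO (log2 1.21, SE 0.19, edgeR adjusted p = 0.00159). KO-Drug against Het gave -0.33 on the log2 scale (95% interval -0.72 to 0.07, edgeR adjusted p = 0.234), which does not show that the levels were alike. Without KO 5 and KO 6 the fall was -1.87 and the rise 1.53. Both were called in each of the 18 alternatives tried.

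The level of Ahcy carries a limit of its own. Gm4737, a gene on chromosome 16 (46152985-46155077), matches the Ahcy transcript with 6 mismatches over 2083 bases (99.7%), so reads of the pair can be assigned to either. Gm4737, named here after its counts were seen, held between 72.5% and 78.8% as many counts as Ahcy in every library, on average 75.5% ± 2.25 in Het, 73.2% ± 1.13 in KO and 74.0% ± 1.21 in KO-Drug (SD, n = 4). Which of the genes those counts came from cannot be told from the table. With the counts of both added, the log2 changes were -1.56 in KO vs Het (edgeR adjusted p = 6.3e-05) and 1.22 in KO-Drug vs KO (edgeR adjusted p = 0.00174). As the ratio of Gm4737 to Ahcy was near constant, adding the counts could hardly move these changes. The sum therefore says nothing of how the reads were split.

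Mat1a was the more abundant of the synthetase genes. It was at 2673, 2664, 3954 and 2897 CPM in Het, at 2908, 2727, 3526 and 3518 CPM in KO and at 4592, 3370, 4463 and 4236 CPM in KO-Drug. Het and KO overlapped throughout, and KO-Drug 2 fell among the KO libraries. KO against Het was 0.06 on the log2 scale (95% interval -0.34 to 0.45, edgeR adjusted p = 0.826), KO-Drug against KO was 0.39 (-0.00407 to 0.79, adjusted p = 0.151) and KO-Drug against Het was 0.45 (0.05 to 0.85, adjusted p = 0.102). With total-count scaling Mat1a was called higher in KO than in Het (0.58, adjusted p = 0.00977, against 0.54 for the median gene) and in KO-Drug than in Het (0.64, adjusted p = 0.0140). The latter was also called without Het 3 (0.60, adjusted p = 0.0413) and by DESeq2 (0.46, adjusted p = 0.0259). Without KO 5 and KO 6, KO against Het was -0.17.

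Mat2a, the lowest of the 9 genes, was at 32.7, 40.0, 43.6 and 42.4 CPM in Het, at 57.2, 51.4, 44.0 and 40.8 CPM in KO and at 55.3, 56.9, 75.7 and 90.4 CPM in KO-Drug. All KO-Drug libraries were above all Het libraries, while KO overlapped both groups. KO-Drug was 1.75-fold higher than Het (log2 0.81, SE 0.17, edgeR adjusted p = 0.00457), a difference called in each of the 16 alternatives tried, at 0.66 to 1.00. KO-Drug was 1.44-fold higher than KO (log2 0.52, SE 0.17, edgeR adjusted p = 0.0455), a call that held in 5 of 17 alternatives. It was lost without KO 4 (0.55, adjusted p = 0.0839), KO 5 (0.47, 0.106), KO 6 (0.45, 0.118), KO-Drug 3 (0.48, 0.112) or KO-Drug 4 (0.38, 0.139), without KO 5 and KO 6 together (0.40, 0.218) and with total-count scaling (0.18, 0.443). KO against Het was 0.29 (95% interval -0.08 to 0.65, edgeR adjusted p = 0.201) and was called with total-count scaling (0.82, adjusted p = 0.00161). The span of Mat2a overlaps those of Ggcx, which was not called in any of the 3 comparisons, and of the non-coding RNA Particl, and no source used here gives the strand setting of the counting.

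The balance of the synthetases was compared as a ratio within a library, which library scaling does not touch. Mat1a exceeded Mat2a by a median of 60.4-fold in Het (53.6 to 73.0), 53.6-fold in KO (40.9 to 69.4) and 47.6-fold in KO-Drug (37.7 to 66.8) in FPKM, a value per transcript length. The log2 ratio differed by -0.21 in KO vs Het (exact permutation p = 0.343), by -0.11 in KO-Drug vs KO (exact permutation p = 0.743) and by -0.33 in KO-Drug vs Het (exact permutation p = 0.171), two-sided. The groups overlapped in each comparison. With 4 against 4 libraries the smallest p possible is 0.0286, and after adjustment over the 6 ratio tests p ranged from 0.343 to 0.743.

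Bhmt, the betaine-homocysteine methyltransferase, varied widely within groups. It was at 4733, 4342, 5190 and 2457 CPM in Het, at 3085, 2067, 2732 and 3254 CPM in KO and at 2760, 4263, 3022 and 1974 CPM in KO-Drug. Het 4 lay among the KO libraries and apart from the other Het libraries. KO against Het was -0.59 on the log2 scale (95% interval -1.17 to 0.00, edgeR adjusted p = 0.102), and without Het 4 it was called (-0.78, adjusted p = 0.0306). KO-Drug against KO was 0.11 (-0.48 to 0.69, adjusted p = 0.813), and its sign turned with total-count scaling (-0.23). KO-Drug against Het was -0.48 (-1.06 to 0.11, adjusted p = 0.243). Bhmt also has near-identical relatives in the annotation, Bhmt-ps1 (98.9% over 1224 bases) and Gm5096 (99.4% over 1869 bases). Neither has counts under its own name, so whether their reads were counted to Bhmt cannot be told. This limits the level of Bhmt and its ratio to Bhmt2. Gm9826, a relative of Ahcy (99.2% over 1299 bases), and Gm9523, of Mat2a (95.2% over 1065 bases), likewise have no counts under their own names.

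Bhmt2, which lies 18338 bases from Bhmt on chromosome 13, was at 203, 249, 223 and 181 CPM in Het, at 157, 129, 138 and 189 CPM in KO and at 209, 213, 252 and 157 CPM in KO-Drug. KO 6 overlapped Het, and KO-Drug 4 lay within KO. In KO, Bhmt2 was 1.39-fold below its Het level (log2 -0.48, SE 0.17, edgeR adjusted p = 0.0362), a call that held in 8 of 17 alternatives. It was lost without Het 2 (-0.40, adjusted p = 0.1003), Het 3 (-0.46, 0.0722), KO 2 (-0.49, 0.0653), KO 4 (-0.40, 0.108) or KO 5 (-0.42, 0.0942), and the sign turned with total-count scaling (0.044). Without KO 5 and KO 6 together it was called (-0.64, adjusted p = 0.0388). KO-Drug against KO was 0.44 (95% interval 0.08 to 0.80, edgeR adjusted p = 0.0828), called without KO 6 (0.55, adjusted p = 0.0497) and without KO-Drug 4 (0.56, adjusted p = 0.0416). KO-Drug against Het was -0.04 (-0.40 to 0.32, adjusted p = 0.903).

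The ratio of Bhmt to Bhmt2 in FPKM had a median of 20.6 in Het (13.7 to 23.6), 18.6 in KO (16.1 to 19.9) and 13.0 in KO-Drug (12.1 to 20.2). The log2 ratio differed by -0.07 in KO vs Het (exact permutation p = 0.657), by -0.36 in KO-Drug vs KO (exact permutation p = 0.143) and by -0.43 in KO-Drug vs Het (exact permutation p = 0.171), with overlap each time.

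Neither gene of transsulfuration was called in any comparison. Cbs, which joins homocysteine and serine to cystathionine, was at 214, 511, 509 and 351 CPM in Het, at 298, 293, 285 and 384 CPM in KO and at 262, 303, 351 and 197 CPM in KO-Drug. Het 1 was lower than every KO library while Het 2 and Het 3 were the highest of all 12. KO against Het was -0.33 on the log2 scale (95% interval -0.88 to 0.22, edgeR adjusted p = 0.321), KO-Drug against KO was -0.18 (-0.73 to 0.37, adjusted p = 0.664) and KO-Drug against Het was -0.51 (-1.06 to 0.04, adjusted p = 0.181). Without Het 1 the last of these was called (-0.71, adjusted p = 0.0275), and on FPKM the fall from KO to KO-Drug was called (-0.56, limma adjusted p = 0.0445). With total-count scaling Cbs was at 0.23 in KO vs Het, the opposite sign.

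Cth, which splits cystathionine into cysteine, was at 486, 455, 513 and 371 CPM in Het, at 386, 279.9, 381 and 478 CPM in KO and at 641, 543, 621 and 412 CPM in KO-Drug. Het and KO overlapped, and in KO-Drug 3 of 4 libraries were above every library of the other groups. KO-Drug against KO was 0.54 on the log2 scale (95% interval 0.13 to 0.95, edgeR adjusted p = 0.0594), just outside the threshold. It was called without KO 6 (0.66, adjusted p = 0.0367), without KO-Drug 4 (0.66, adjusted p = 0.0355), without KO 5 and KO 6 together (0.78, adjusted p = 0.0392) and by DESeq2 (0.53, adjusted p = 0.0271), but not with total-count scaling. KO against Het was -0.26 (-0.66 to 0.15, adjusted p = 0.293), with the opposite sign under total-count scaling (0.25), and KO-Drug against Het was 0.28 (-0.12 to 0.69, adjusted p = 0.324).

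**Figure D2:**
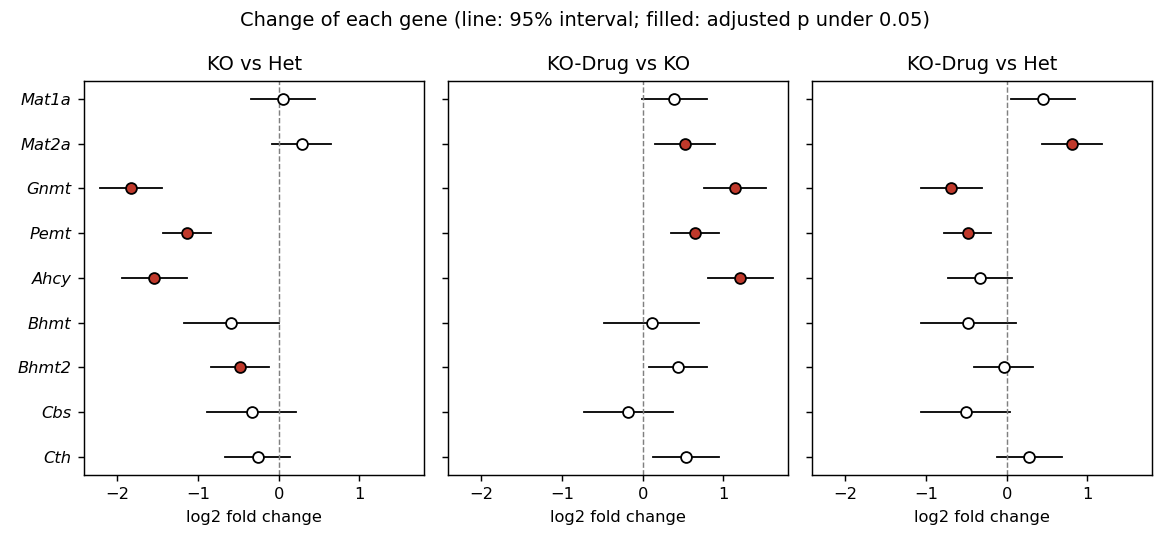
Log2 fold change of each of the 9 genes (horizontal axis) in the 3 comparisons, from the edgeR fit on TMM-scaled counts. Lines are 95% intervals and filled points have an adjusted p under 0.05. In KO vs Het the filled points are Gnmt, Ahcy, Pemt and Bhmt2, all to the left of 0 (Bhmt2 moves to 0.044 with total-count scaling), and in KO-Drug vs KO they are Ahcy, Gnmt, Pemt and Mat2a, all to the right.

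**Figure D3:**
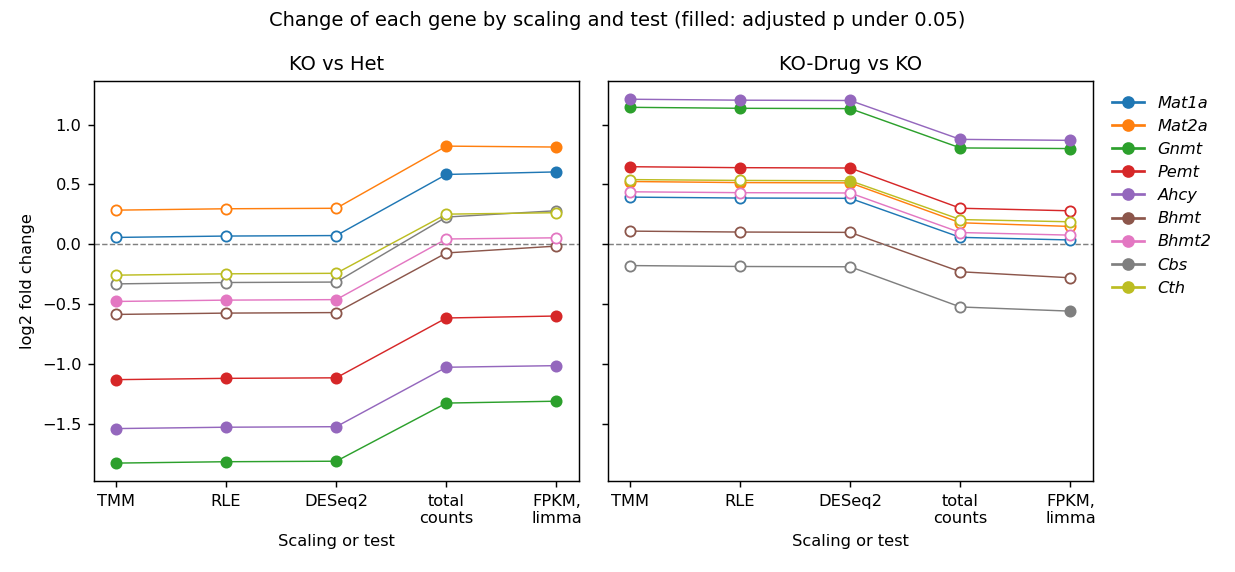
Log2 fold change of the 9 genes (vertical axis) in KO vs Het and KO-Drug vs KO under 5 scalings or tests (horizontal axis); filled points have an adjusted p under 0.05. All genes move up together in KO vs Het with total counts and FPKM, and down in KO-Drug vs KO. Gnmt and Ahcy stay filled throughout, whereas Bhmt2, Cbs and Cth cross 0 in KO vs Het.

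Levels were compared between genes on the deposited FPKM, which is per length. In Het the order of mean FPKM was Bhmt at 1377 ± 423, Gnmt at 1321 ± 274, Mat1a at 593 ± 98.5, Ahcy at 418 ± 77.6, Pemt at 194 ± 28.2, Cth at 173 ± 31.1, Cbs at 105 ± 28.2, Bhmt2 at 69.4 ± 7.33 and Mat2a at 9.59 ± 0.762 (SD, n = 4). Libraries of Bhmt and Gnmt overlapped, as did those of Mat1a and Ahcy, of Pemt and Cth, and of Cbs and Bhmt2. In KO, Bhmt stayed first at 1320 ± 192, Mat1a came second at 896 ± 97.0 and Gnmt followed at 530 ± 90.8, with no overlap between these 3. Cth at 208 ± 34.3 and Ahcy at 207 ± 36.8 were not separable, nor were Pemt at 128 ± 13.2 and Cbs at 125 ± 13.2. In KO-Drug the ranges of Bhmt (762 to 1578), Mat1a (741 to 1067) and Gnmt (802 to 985) overlapped again. The places of Ahcy hold for its own row only, since reads of Ahcy and Gm4737 can be assigned to either. The level of Bhmt can include reads of Bhmt-ps1 and Gm5096, which have no counts under their own names.

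The share of each gene in the summed FPKM of the 9 does not depend on library scaling. Gnmt took 26.7% to 35.6% of the sum in Het, 12.1% to 17.3% in KO and 20.5% to 25.3% in KO-Drug, with no overlap between groups. Ahcy took 9.15% to 10.3% in Het, 4.79% to 6.46% in KO and 7.46% to 11.8% in KO-Drug. Any Ahcy reads counted to Gm4737 are left out of these shares. Mat1a went the other way, from 11.6% to 16.4% in Het up to 22.6% to 28.6% in KO, and stood at 17.6% to 27.4% in KO-Drug. Bhmt held the largest share in KO, 34.7% to 40.3%, and Cth held 3.96% to 4.16% in Het and 5.41% to 6.42% in KO. A share rises when others fall, so these values give the makeup of the pathway's transcripts and not a change of a single gene.

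**Figure D4:**
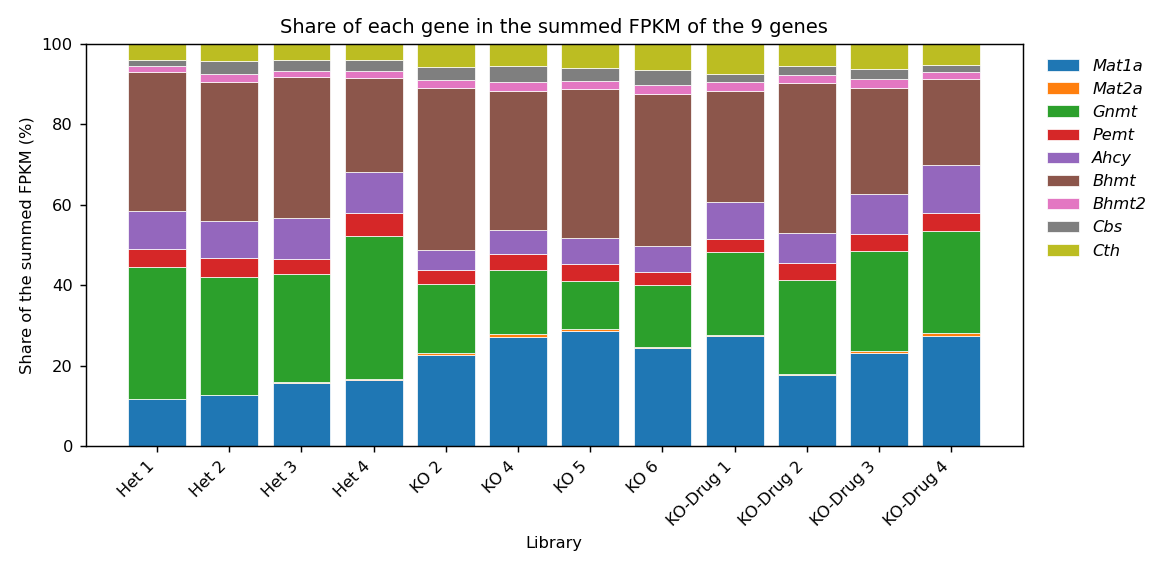
Share of each of the 9 genes in their summed FPKM (vertical axis, percent) in each of the 12 libraries (horizontal axis). The Gnmt band is at most 17.3% in the KO libraries and at least 20.5% elsewhere, and the Mat1a band is at most 16.4% in Het and at least 17.6% elsewhere.

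The 9 genes also differed in how closely their patterns over the 12 libraries matched, measured as the root mean square difference of log2 CPM centred on each gene's mean. The smallest difference was between Bhmt2 and Cth (0.19), followed by Mat1a and Cth (0.27) and by Ahcy and Gnmt (0.30). The largest was between Mat2a and Gnmt (0.94). The difference is not scaled to a gene's own variation, so genes that vary little can lie close without sharing a pattern. A gene's own root mean square was 0.28 for Mat1a, 0.30 for Bhmt2, 0.33 for Cth, 0.39 for Mat2a and 0.41 for Cbs. It was 0.44 for Bhmt, 0.49 for Pemt, 0.70 for Ahcy and 0.79 for Gnmt. Among 11684 other named genes at 1 CPM or more on average, the nearest to Ahcy were Chchd10 (0.16) and Apoa2 (0.20), and the nearest to Gnmt were Tm7sf2 (0.21) and Nectin3 (0.25). Pemt was nearest to Isoc2a (0.11), Mat1a to Ap5s1 (0.09) and Creg1 (0.12), and Mat2a to Dmxl2 (0.19) and Nrip1 (0.20). Bhmt was nearest to Btbd6 (0.24) and Sord (0.25), Bhmt2 to Adh5 (0.13) and Pgk1 (0.14), Cbs to Serpind1 (0.15) and Fam234b (0.22), and Cth to Nat9 and Ndufa10 (both 0.16). These distances describe the 12 libraries and carry no test.

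Transcripts that mark cell types also differed between the groups. The marker calls are on the TMM scale, where 23% of all tested genes were called higher in KO and 17.7% lower. Under the agonist 11% of all tested genes were called lower and 8.8% higher. The 7 hepatocyte markers, Alb and Hnf4a among them, were called lower in KO than in Het in 7 of 7 cases, and 1 of the 7 was called higher under the agonist. Their summed level was 70382 to 118880 CPM in Het, 31658 to 59883 in KO and 56987 to 77483 in KO-Drug. The 10 macrophage and Kupffer cell markers were all called higher in KO, with sums of 372 to 492 CPM in Het, 846 to 2009 in KO and 361 to 864 in KO-Drug, and 8 of the 10 fell under the agonist. Markers of dividing cells (6 of 6 higher in KO) summed to 5.52 to 14.97 CPM in Het, 118 to 180 in KO and 68.4 to 137 in KO-Drug, and cholangiocyte markers (3 of 7 higher) to 19.0 to 26.1, 52.2 to 143 and 21.0 to 31.4. All 5 tested T and NK cell markers were called higher in KO, with sums of 0.688 to 1.30 CPM in Het, 3.76 to 11.9 in KO and 0.677 to 2.23 in KO-Drug. All 3 tested neutrophil markers were called higher too, with sums of 0.952 to 6.17, 10.8 to 68.4 and 8.44 to 28.31 CPM, and Ncr1 (NK cells) and Ly6g (neutrophils) were at 0 in Het and in KO-Drug. Called lower under the agonist were 1 of 6 dividing-cell, 2 of 7 cholangiocyte, 3 of 5 T and NK cell and 0 of 3 neutrophil markers. In KO-Drug 5 of the 6 dividing-cell markers were called higher than in Het, beside 13% of all tested genes. In KO, 3 of 8 stellate cell and 2 of 6 sinusoidal endothelial markers were called higher, beside 23% of all tested genes. Their sums overlapped: stellate 174 to 289 CPM in Het and 223 to 349 in KO, endothelial 232 to 388 and 282 to 357. The endothelial markers had a median log2 change of -0.05 in KO vs Het. Pericentral hepatocyte markers, such as Glul and Cyp2e1, summed to 9272 to 12363 CPM in Het, 3820 to 4566 in KO and 6288 to 10793 in KO-Drug, and periportal ones to 2676 to 5604, 2018 to 3299 and 1817 to 3533. In whole liver, fewer hepatocytes and less RNA per hepatocyte cannot be told apart. The part of these shifts in the falls of Gnmt, Ahcy and Pemt, and in that of Bhmt2 on the TMM scale, was not tested.

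The genes around the cycle were counted from 7 lists with 77 members, of which 75 were tested. In KO vs Het 10 rose and 24 fell, where 23% of all tested genes were called higher and 17.7% lower, and the median log2 change was -0.27, beside 0.02 for all genes. In KO-Drug vs KO 24 rose and 6 fell, where 8.8% of all genes were called higher and 11% lower, with a median of 0.29 beside -0.02. In KO-Drug vs Het 11 rose and 6 fell, where 13% of all genes were called higher and 8.45% lower, with a median of 0.01, and that of all genes was near 0. These counts turn on the scaling: with library totals 27 rose and 6 fell in KO vs Het, and 5 rose and 12 fell in KO-Drug vs KO. The count of 24 that rose under the agonist also fell to 14 without KO 2, to 11 without KO 4 and to 12 without KO-Drug 3.

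The choline and betaine list joins genes that supply betaine to Bhmt, genes that act after it and genes that put choline into phosphatidylcholine. Of its 8 genes 4 fell in KO (Chpt1, Dmgdh, Pipox and Sardh) and 0 rose, beside 17.7% and 23% of all tested genes, with a median of -0.68. Under the agonist 6 rose (Chpt1, Chdh, Dmgdh, Sardh, Aldh7a1 and Slc44a1) and 0 fell, beside 8.8% and 11% of all genes, with a median of 0.62. With total-count scaling 2 fell and 1 rose in KO, and 2 rose and 0 fell under the agonist. Chpt1, cholinephosphotransferase, which makes phosphatidylcholine by the route that does not need Pemt, was at 215 to 380.5 CPM in Het, 80.1 to 126 in KO and 194 to 260 in KO-Drug (log2 -1.43 and 1.20, edgeR adjusted p = 1.6e-04 and 0.00223). Dmgdh and Sardh oxidise the dimethylglycine and sarcosine that Bhmt and Gnmt release. Chdh, which turns choline towards betaine, was at 142, 172, 198.8 and 140 CPM in Het and at 282, 296, 249 and 251 CPM in KO-Drug (log2 0.72, edgeR adjusted p = 0.0111).

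Among 10 other SAM-dependent methyltransferases, 2 rose and 3 fell in KO, beside 23% and 17.7% of all tested genes, and 4 rose and 1 fell under the agonist, beside 8.8% and 11%. With total-count scaling 4 rose and 2 fell in KO, and 2 rose and 2 fell under the agonist. Inmt, indolethylamine N-methyltransferase, was at 299, 148, 201 and 163 CPM in Het, at 9.39, 11.01, 12.9 and 10.8 CPM in KO and at 566, 535, 1289 and 973 CPM in KO-Drug. The 3 groups lay far apart, with KO-Drug the highest. In KO, Inmt was 18.4-fold below its Het level (log2 -4.20, SE 0.33), 76.1-fold higher in KO-Drug than in KO (log2 6.25, SE 0.36) and 4.15-fold higher in KO-Drug than in Het (log2 2.05, SE 0.30, edgeR adjusted p = 2.9e-04). Nnmt, which methylates nicotinamide, was at 8.77, 14.6, 16.51 and 26.3 CPM in Het and at 75.0, 143, 61.0 and 174 CPM in KO, a rise of 6.83-fold (log2 2.77, SE 0.49, edgeR adjusted p = 8.1e-04). Dnmt1, the maintenance DNA methyltransferase, rose in KO and fell under the agonist (log2 -0.86, edgeR adjusted p = 0.0232), a fall not called without KO 5 (-0.76), KO-Drug 3 (-0.70) or KO-Drug 4 (-0.78). That call was also lost without KO 5 and KO 6 together (-0.74, edgeR adjusted p = 0.0967) and with the animal number as a block (-0.69, edgeR adjusted p = 0.210). Gamt, which makes creatine, was lower in KO-Drug than in Het (log2 -0.80, edgeR adjusted p = 0.0116).

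Of 18 tested folate and cobalamin genes 2 rose and 5 fell in KO, beside 23% and 17.7% of all tested genes, while with total-count scaling 6 rose and 0 fell. Mthfd1l, the mitochondrial formate-producing enzyme, was at 1.29, 0.624, 1.32 and 2.04 CPM in Het, at 9.15, 14.6, 19.7 and 23.3 CPM in KO and at 15.9, 9.59, 9.32 and 12.8 CPM in KO-Drug. It was 12.6-fold higher in KO (log2 3.65, SE 0.36, edgeR adjusted p = 1.1e-05) and 8.98-fold higher in KO-Drug than in Het (log2 3.17, SE 0.36, adjusted p = 4.1e-05). Every KO and KO-Drug library was above every Het library. Mtr, methionine synthase, which competes with Bhmt for homocysteine, was among the genes that rose in KO. Slc46a1, the proton-coupled folate transporter, fell in KO (log2 -0.74, edgeR adjusted p = 0.00740), Fpgs, which adds glutamates to folate, rose under the agonist (0.62, adjusted p = 0.0178), and Mthfd2 fell (-1.38, adjusted p = 0.0419), all 3 calls being lost in several alternatives. In the glycine and serine list (6 tested) Gcsh was the only gene called in KO (-0.80), where 17.7% of all tested genes fell, and it rose under the agonist (0.72). Neither call of Gcsh held with total-count scaling (-0.30, adjusted p = 0.161, and 0.37, adjusted p = 0.115) or on FPKM, and total counts gave 2 genes of the list higher and 0 lower in KO. Psat1 fell under the agonist from 37, 35, 33 and 25 counts to 9, 0, 0 and 2 counts (log2 -2.995, or -4.85 without KO-Drug 1).

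Downstream of Cbs and Cth, 4 of 16 genes of cysteine use rose in KO (Slc7a11, Ggt1, Gsr and Gss) and 7 fell (Cdo1, Chac1, Ethe1, Gclm, Mpst, Suox and Tst), beside 23% and 17.7% of all tested genes. With total-count scaling 4 rose and 1 fell. Slc7a11, the cystine importer, was at 4, 0, 0 and 2 counts in Het, at 107, 147, 145 and 138 counts in KO and at 0, 0, 0 and 4 counts in KO-Drug. Its transcript was thus counted in every KO library and near 0 elsewhere (log2 5.91 in KO vs Het, or 6.96 without Het 1, edgeR adjusted p = 9.6e-05). It fell under the agonist (log2 -6.42, edgeR adjusted p = 6.4e-04, or -9.81 without KO-Drug 4, which leaves that group at 0 counts). Mpst, a sulfur transferase acting on a cysteine product, fell by 0.75 on the log2 scale in KO, and Tst, rhodanese, rose by 0.56 under the agonist (edgeR adjusted p = 7.9e-04 and 0.00761). Both calls were lost with total-count scaling (-0.23, adjusted p = 0.132, and 0.22, adjusted p = 0.217) and on FPKM. Gclc, the catalytic subunit of glutathione synthesis, was lower in KO-Drug than in Het (log2 -0.78, edgeR adjusted p = 0.0217). Ggt1 rested on 3 counts in Het, all in Het 4, against 73 in KO-Drug, a ratio of 24.7 (95% counting interval 8.13 to 122.6). That interval pools the counts of each group and leaves out the spread between libraries. The log2 change of Ggt1 was 4.44, or 7.43 without Het 4, and it was not called on log2(FPKM + 1) (0.39, limma adjusted p = 0.303).

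Of 5 genes of SAH-related proteins and adenosine removal, Adk alone was called. That is 1 lower in KO and 1 higher under the agonist, beside 17.7% and 8.8% of all tested genes. Adenosine kinase, which takes away the adenosine that Ahcy releases, was at 690, 837, 821 and 748 CPM in Het, 376, 279.7, 522 and 461 CPM in KO and 583, 655, 676 and 545 CPM in KO-Drug. It fell in KO (log2 -0.92, SE 0.18, edgeR adjusted p = 0.00154) and rose under the agonist (0.59, SE 0.18, adjusted p = 0.0365), though not in the absence of KO 2 (0.55), KO 4 (0.44), KO-Drug 2 (0.56) or KO-Drug 3 (0.54), nor with total-count scaling (0.25). Of 12 genes of methionine salvage and polyamines 2 rose and 3 fell in KO, beside 23% and 17.7% of all tested genes, against 7 and 0 with total-count scaling. Smox, spermine oxidase, rose in KO (log2 1.29) and fell under the agonist (-1.35, edgeR adjusted p = 0.00970), Paox, which oxidises acetylated polyamines, rose under it (1.49, adjusted p = 7.5e-04), and Adi1 of the salvage route fell in KO (-0.68), a call lost with total-count scaling (-0.18, adjusted p = 0.334) and on FPKM.

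**Figure D5:**
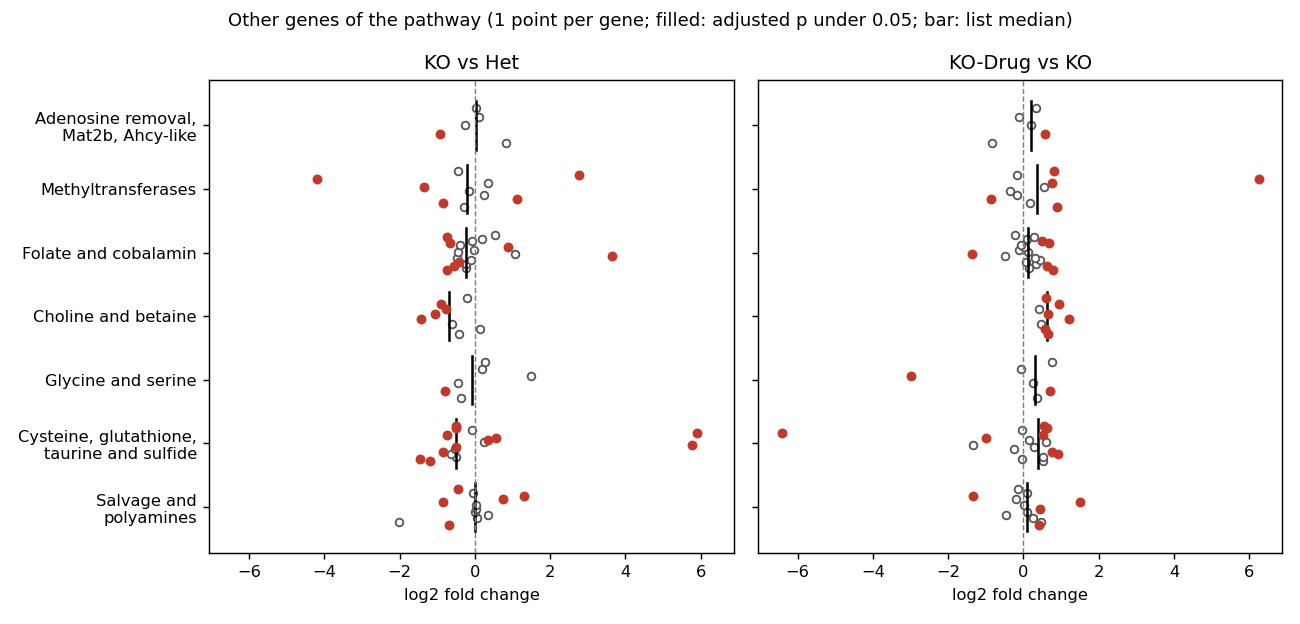
Log2 fold change (horizontal axis) of the other genes of the pathway by list (vertical axis) in KO vs Het and in KO-Drug vs KO, from the edgeR fit on TMM-scaled counts. Each point is a gene, filled where the adjusted p is under 0.05, and the bar is the list median. The choline and betaine list has a median of -0.68 in KO vs Het and 0.62 in KO-Drug vs KO (-0.14 and 0.28 with total-count scaling), and the far points are Inmt (-4.20 and 6.25), Mthfd1l (3.65) and Slc7a11 (5.91 and -6.42).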

How the data were processed

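RNA of flash-frozen liver was extracted (RNeasy mini kit) and converted to TruSeq Stranded Total RNA libraries, per the labels' protocols. FastQC 0.11.7, StringTie 2.1.3b and the mm10 build were used, per the submitters' processing notes (aligner, annotation and counting strand: not given in the sources used here). Per gene and library the authors deposited a whole-number read count, not normalized, and an FPKM, per the file headers. For 6404 genes of 200 counts or more, 99.3% of the FPKM to count ratios lay within 5% of 1 factor per library, so both come from the same reads. Not used were 3 unnamed columns, filled for 4 genes only.

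The filterByExpr function (counts of 10, totals of 15) left 13379 genes. All 12 libraries entered 1 edgeR 4.0.16 quasi-likelihood fit (R 4.3.3) with group means, TMM scaling and 9 residual degrees of freedom, and each comparison was a two-sided contrast. Adjustment was by Benjamini-Hochberg across the 13379 genes, with calls at adjusted p-values under 0.05. Ratios of 2 genes within a library were compared by exact permutation in scipy 1.17.1. The alternatives were RLE and total-count scaling, no filter, DESeq2 1.42.0, limma 3.58.1 on log2(FPKM + 0.1) and log2(FPKM + 1), a fit of the 2 groups alone, each library left out, KO 5 and KO 6 left out together, and the animal number as a block. Adding the counts of Ahcy and Gm4737 was chosen after seeing the data. The fit was tested on simulated data. Promoters came from RefSeq (GRCm38.p6) and near-identical copies from a blastn search of GENCODE M21 transcripts (at least 300 bases and 95% identity).

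The 9 genes, the pathway lists and the marker lists were chosen with earlier results of these data known. Named pathway genes are, per list and comparison, the called gene with the smallest adjusted p in each direction; genes given without values are the other called members. Pattern neighbours are the 2 nearest genes averaging 1 CPM or more. A few named results that these rules would give are not reported here. Pairs of libraries within a group differed by at least 37.2 times sampling noise (chi-square per gene), so none was a repeat deposit. The labels do not state that the libraries are separate animals by litter or day, so p-values measure the spread between these 12 libraries. The depth, 16535938 to 28329751 counts per library, gave each of the 9 genes at least 634 counts in every library.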

Additional observations from a re-analysis of the deposited data

Results flagged for a closer look

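Among 33 sets of 4 libraries examined, 1 held a library far from the other 3. Cbs in KO 6 was at 384 CPM, while the other KO libraries were at 298, 293 and 285 CPM, so that the gap to the nearest was 0.873 of the range of the group, above Dixon's 95% critical value for 4 samples. About 1 in 20 such sets is flagged by chance. KO 6 is also one of the pair of libraries with Xist counts. Without it, the Cbs difference between KO and Het was -0.44 on the log2 scale and that between KO-Drug and KO was -0.07, beside -0.33 and -0.18 with it, and neither was called.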

How the results depend on the processing

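Of the calls on the 9 genes, those of Gnmt, Ahcy and Pemt in KO vs Het, of Gnmt and Ahcy in KO-Drug vs KO, and of Mat2a in KO-Drug vs Het held under all alternatives run. With total-count scaling and with both FPKM fits, 2 of the 9 genes were called higher in KO vs Het instead of 0 and 2 instead of 4 were called higher in KO-Drug vs KO. Both FPKM fits called 1 gene, Cbs, lower in KO-Drug vs KO. In KO-Drug vs Het 2 were called higher instead of 1 with total-count scaling, DESeq2 and both FPKM fits, and 1 was called lower with total-count scaling and 0 with both FPKM fits, instead of 2. Leaving out 1 library gave 1 to 2 higher (2 without Het 3) and 1 to 3 lower (1 without KO-Drug 1 or KO-Drug 4) in that comparison. The number of all genes called in KO-Drug vs KO, 2654, became 4255 with total-count scaling, 4781 and 4923 with FPKM + 0.1 and FPKM + 1, and 1632 to 2935 with 1 library left out (1633 without KO 4, 1632 without KO-Drug 3). With total-count scaling the share of called genes that were higher went from 56.5% to 93.8% in KO vs Het, from 44.3% to 8.32% in KO-Drug vs KO and from 60.6% to 83.0% in KO-Drug vs Het. The sign of small, uncalled or weakly called log2 changes turned as follows, with total-count scaling, FPKM + 0.1 and FPKM + 1 in that order: in KO vs Het, Bhmt2 to 0.044, 0.054 and 0.053, Cbs to 0.23, 0.28 and 0.28, and Cth to 0.25, 0.26 and 0.26; in KO-Drug vs KO, Bhmt to -0.23, -0.28 and -0.28; and in KO-Drug vs Het, Bhmt2 to 0.14, 0.13 and 0.13. Mat1a in KO vs Het turned to -0.0040 without Het 1, -0.011 without Het 2 and -0.17 without KO 5 and KO 6, and leaving out 1 library gave -0.011 to 0.20. Bhmt in KO-Drug vs KO turned to -0.014 without KO 4 and -0.10 without KO-Drug 2 (-0.10 to 0.27 over the libraries), and Bhmt2 in KO-Drug vs Het to 0.035 without Het 2 and 0.074 without KO-Drug 4 (-0.14 to 0.074 over the libraries). No named pathway gene turned sign, and 72 of 534 alternatives for them lost the call. Equal animal numbers gave correlations of 0.0726 and 0.0247 between KO and Het, 0.106 and 0.0883 between KO-Drug and KO, and -0.03 to 0.14 between KO-Drug and Het. The best match was the own number for 0 of 2, 2 of 2 and 3 of 4 pairs in that order. The numbers were not taken to pair the samples, because the labels do not say that they do and not every correlation was over 0.1. Animal numbers 5 and 6 occur only in KO. With the animal number as a block, KO 5 and KO 6 therefore add nothing to the comparisons, which for KO rest on KO 2 and KO 4. In that fit 1741 genes were called in KO-Drug vs KO. Among the 9 genes the calls of Bhmt2 in KO vs Het (-0.49, edgeR adjusted p = 0.0642) and of Mat2a in KO-Drug vs KO (0.40, edgeR adjusted p = 0.215) were lost and no other was. The cause of these moves was not tested.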

Other observations

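Some neighbouring genes of the pathway differed from Het under the agonist. Mtr, methionine synthase, was at 9.92 ± 2.16 CPM in Het, 18.3 ± 2.98 in KO and 18.5 ± 3.47 in KO-Drug (SD, n = 4), a log2 difference of 0.90 between KO-Drug and Het (edgeR adjusted p = 0.00474). Gsr, glutathione reductase, was at 93.4 ± 5.49, 119 ± 14.6 and 131 ± 12.2 CPM in the same order (log2 0.49, edgeR adjusted p = 0.00900). As3mt, an arsenite methyltransferase, was at 59.3 ± 3.88, 48.5 ± 5.39 and 90.4 ± 12.2 CPM, so that only its KO-Drug libraries lay above Het (log2 0.61, edgeR adjusted p = 0.00319). These 3 genes were chosen after their values were seen, and they belong to lists whose counts are given above.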
